A study of Mus musculus with 18 samples.

Results

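The 10 genes described here are markers and regulators of the epithelial-mesenchymal transition (EMT): Cdh1, Epcam, Cdh2, Vim, Fn1, Snai1, Snai2, Zeb1, Zeb2 and Twist1. They were taken by symbol from the 45706 genes of a table of read counts, each symbol matched 1 row, and all 10 were among the 16619 genes with enough reads to be tested. The libraries were made from mouse induced pluripotent stem cells (iPSCs), wild type (wt) or knock-out (KO) for Hmga2, a chromatin protein that has been linked with EMT in tumours. Cells were collected at 0 h, when they grew as undifferentiated colonies over inactivated fibroblast feeders in medium with LIF and inhibitors that hold the naïve state, and at 24 h after the move to EpiLC medium with Activin A and bFGF on a basement membrane matrix without added feeders. EpiLCs (epiblast-like cells) resemble the early post-implantation epiblast. The 6 groups, of 3 libraries each, were wt, KO#1 and KO#2 at both times; the labels give wt and each KO as 1 numbered line, so a difference between a KO line and wt is also a difference between single lines.

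Library totals went from 3466436 to 23872837 counts, the 3 lowest all being 0 h libraries of wt and KO#1. Hmga2 itself was at 13.3 to 22.4 CPM (read counts scaled to the size of their library) in wt at 0 h, 1.75 to 10.2 CPM in KO#1 and 1.84 to 8.25 CPM in KO#2. At 24 h it was at 5.51 to 5.93 CPM in wt and 0.871 to 3.67 CPM in KO#1. The KO#2 libraries of 24 h were at 10.5, 3.02 and 3.48 CPM, the first above wt and the others below it. At 0 h every library of both KO lines lay below wt. Because of the 1 high library at 24 h, the KO#2 samples are named by their label, as the KO#2-labelled libraries, below. The paper blotted Hmga2 protein in its wt and KO clones, and protein was not measured here. The 4 EpiLC markers (Fgf5, Otx2, Dnmt3b and Pou3f1) rose from 0 h to 24 h in each line, and of 5 pluripotency markers Sox2, Nanog and Esrrb fell in each line while Pou5f1 and Zfp42 were not called over time. The summed CPM of 8 genes of fibroblasts (Acta2, the collagens Col1a1, Col3a1 and Col1a2, Thy1, Lox, Dcn and Postn) was 110 to 390 in wt, 183 to 514 in KO#1 and 331 to 898 in the KO#2-labelled libraries at 0 h. At 24 h it was 19.0 to 34.6 in wt, 38.7 to 51.8 in KO#1 and 71.0 to 219 in the KO#2-labelled libraries. The sum was lower at 24 h than at 0 h in each line, and at 24 h its ranges did not overlap between lines. At 0 h they did overlap, and 0 of the 8 genes were called in KO#1 against wt. The 8 genes did not all move together: Dcn had 0 counts in all 3 wt libraries of 0 h and 46 to 142 at 24 h. The sum is therefore only a rough measure of fibroblast RNA. Fibroblasts also express most of the mesenchymal genes named here. In such bulk RNA, fewer cells of a type and less RNA per cell cannot be told apart.

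In EMT, an epithelial cell gives up its E-cadherin junctions and takes on a mesenchymal cytoskeleton and matrix. The transcription factors of the Snail, ZEB and Twist families drive the change, Snail and ZEB proteins by binding E-boxes with the core CACCTG in the promoters of epithelial genes, Cdh1 foremost. TGF-beta and related ligands, Activin A among them, act through Smad proteins, and TGF-beta signalling induces these factors in many cells. Pluripotent stem cells are epithelial in character, and during gastrulation cells of the epiblast pass through an EMT at the primitive streak.

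In the GENCODE M21 annotation of GRCm38, all 10 are protein coding. Cdh1 (E-cadherin) lies at chr8:106603351-106670246 on the plus strand, and Epcam at chr17:87635979-87651129 on the plus strand. Vim lies at chr2:13573927-13582826 on the plus strand and Fn1 at chr1:71585520-71653200 on the minus strand. Of the transcription factors, Snai1 lies at chr2:167538195-167542814 and Snai2 at chr16:14705852-14709385, both on the plus strand. Zeb2 lies at chr2:44983632-45117395 on the minus strand and Twist1 at chr12:33957671-33959829 on the plus strand. Antisense genes overlap 4 of them, Cdh2, Fn1, Zeb1 and Zeb2. The best counted of these partners was Apol7d, which overlaps Fn1 and had 193 counts over all 18 libraries, against at least 1299 counts of Fn1 in each one.

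RefSeq promoter windows of GRCm38.p6, from 250 bases before to 50 bases after a gene's start, were matched for 5 of the 10 genes (Epcam, Vim, Snai1, Zeb2 and Twist1). Both strands were searched for the E-box CACCTG, which reads CAGGTG on the other strand and is the site of the Snail and ZEB factors measured here. Among 32851 windows of this length, 20.2% hold it and 2.88% hold it 2 or more times. The windows of Epcam and Snai1 hold it, and those of Vim, Twist1 and Zeb2 do not have these letters. The windows of both are shown because one belongs to the gene with the clearest rise and the other to a factor that fell while it rose. The Epcam window, chr17:87635729-87636028 on the plus strand, has 2 matches, at -187 and -19 from the start, and the Snai1 window, chr2:167537945-167538244 on the plus strand, has 1, at -126. Capitals mark the E-boxes.
Epcam: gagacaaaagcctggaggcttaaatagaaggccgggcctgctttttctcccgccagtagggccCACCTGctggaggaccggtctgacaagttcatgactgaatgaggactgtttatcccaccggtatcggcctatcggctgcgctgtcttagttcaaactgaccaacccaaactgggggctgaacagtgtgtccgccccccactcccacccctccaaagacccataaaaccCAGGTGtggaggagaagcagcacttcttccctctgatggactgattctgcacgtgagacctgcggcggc
Snai1: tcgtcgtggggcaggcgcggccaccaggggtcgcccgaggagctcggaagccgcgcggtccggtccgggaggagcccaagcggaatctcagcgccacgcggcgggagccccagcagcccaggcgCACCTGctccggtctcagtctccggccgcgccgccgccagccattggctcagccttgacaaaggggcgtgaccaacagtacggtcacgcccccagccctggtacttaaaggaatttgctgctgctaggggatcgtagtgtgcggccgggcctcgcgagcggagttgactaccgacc
Each match is a description of the letters, and binding was not measured here.

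Compared per length of exon, as CPM per kilobase, Fn1 was the highest of the 10 genes in wt at 0 h, with 262 ± 88.7 (SD, n = 3), followed by Cdh1 with 78.4 ± 14.7, Vim with 36.1 ± 11.5 and Epcam with 15.1 ± 1.35. The other 6 genes lay far lower, from 2.31 ± 1.23 CPM per kilobase for Snai1 through 1.78 ± 0.154 for Zeb1, 0.996 ± 0.403 for Twist1, 0.689 ± 0.281 for Snai2 and 0.507 ± 0.143 for Cdh2 to 0.0597 ± 0.0370 for Zeb2. Snai1 and Zeb1 overlapped in their libraries, as did Twist1 with Snai2 and Snai2 with Cdh2, and the other neighbours in this order did not. At 24 h the order in wt began with Epcam, at 106 ± 13.4 CPM per kilobase, then Cdh1 at 46.6 ± 15.6, Vim at 29.2 ± 4.15 and Fn1 at 16.4 ± 1.94. By their means, both KO lines had the same first 4 genes in the same order at 24 h, but their libraries overlapped. In KO#1, Cdh1 (34.9 to 87.2) overlapped Epcam (58.6 to 81.0) and Vim (45.9 to 51.0). In the KO#2-labelled libraries, Fn1 (10.6 to 56.2) overlapped Vim (26.5 to 37.8) and Cdh1 (37.2 to 65.0). Zeb2 had the lowest mean in every group.

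**Figure D1:**
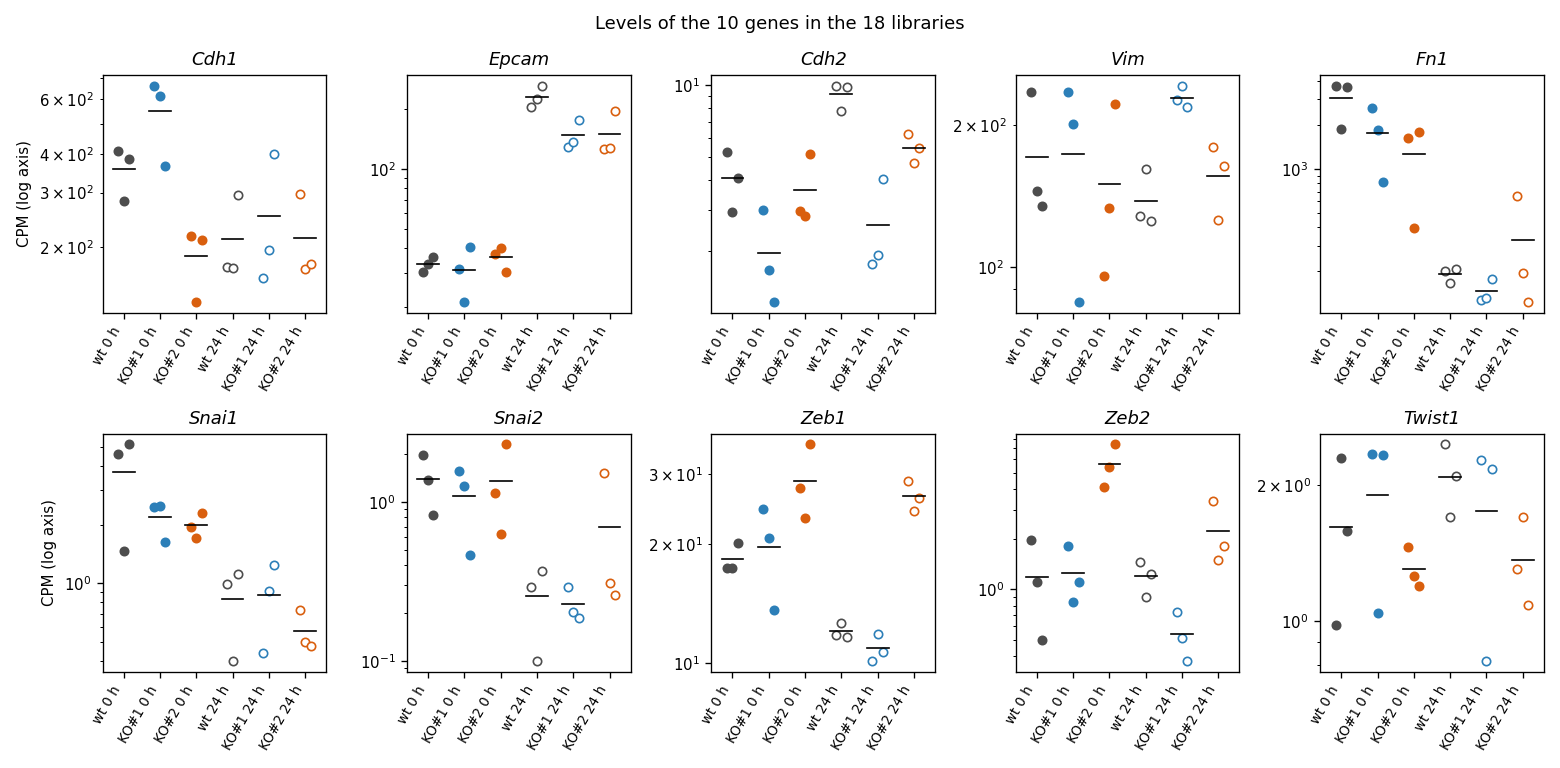
Level of each of the 10 genes in the 18 libraries, in CPM on a logarithmic axis that differs between panels; each point is 1 library, filled at 0 h and open at 24 h, and each bar is the mean of 3. Epcam stands higher at 24 h in every line, Fn1 lower in wt and KO#1 without overlap, and Zeb1 and Zeb2 stand higher in the KO#2-labelled libraries than in wt at both times, though Zeb2 was not called at 24 h and its difference there was -0.58 with the fibroblast score in the model.

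The first question was which of these genes changed within 24 h of EpiLC induction. In wt, 6 of the 10 passed the test, 2 higher and 4 lower, where 50.7% of all tested genes passed, 26% higher and 24.7% lower. A gene was called at a Benjamini-Hochberg adjusted p under 0.05 in edgeR's quasi-likelihood test, and fold changes below are given as log2 values with their standard error (SE). In KO#1, 5 of 10 were called (1 higher, 4 lower) against 40.8% of all genes, 20.1% higher and 20.6% lower, and in the KO#2-labelled libraries 4 of 10 (1 higher, 3 lower) against 26%, 12.7% higher and 13.3% lower. The times did not overlap in 6 of the 10 genes in wt, 6 in KO#1 and 3 in the KO#2-labelled libraries, against 57.9%, 44.5% and 44.7% of all genes. The counts called lie about 1 gene of 10 above the shares of all genes. The median log2 fold change of the 10 genes was -0.46 in wt, -0.98 in KO#1 and -0.04 in the KO#2-labelled libraries, and that of all tested genes 0.03, 0.00 and -0.03. Without scaling factors, by library totals alone, the median of all genes was -0.58 in wt, -0.78 in KO#1 and -0.06 in the KO#2-labelled libraries, and changes are given relative to a median near 0.

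Epcam, the epithelial adhesion molecule, showed the clearest change. In wt its level was 30.2, 33.1 and 36.1 CPM at 0 h and 207, 225 and 264 CPM at 24 h. In KO#1 it was 31.3, 21.3 and 40.2 CPM at 0 h and 129, 138 and 178 CPM at 24 h, and in the KO#2-labelled libraries 37.3, 40.0 and 30.4 CPM, then 127, 127 and 196 CPM. Every 24 h library was above every 0 h library in all 3 lines. Epcam rose by 2.80 (SE 0.26) on the log2 scale in wt (edgeR adjusted p = 6.00e-07), by 2.25 (SE 0.26) in KO#1 (7.60e-06) and by 2.06 (SE 0.25) in the KO#2-labelled libraries (2.25e-05). The response differed from that of wt by -0.55 (SE 0.35) in KO#1 and by -0.74 (SE 0.35) in the KO#2-labelled libraries, and neither difference passed the test (edgeR adjusted p = 0.650 and 0.208).

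Cdh1, the cadherin of epithelial junctions, did not follow Epcam. Its level in wt was 409, 282 and 384 CPM at 0 h and 173, 171 and 296 CPM at 24 h, and the groups overlapped in replicate 3 of 24 h (log2 fold change -0.75, SE 0.36, edgeR adjusted p = 0.0913). It was called lower in wt without that library (-1.11, adjusted p = 0.0311), without scaling factors (-1.30, 0.0209), with at least 10 counts required in every library (-0.84, 0.0466) and with only the groups compared (-0.79, 0.0352), and it was smaller with a score of fibroblast genes in the model (-0.43, 0.576). In KO#1 it was 663, 614 and 366 CPM, then 160, 197 and 399 CPM, and it fell by 1.12 (SE 0.36) on the log2 scale (edgeR adjusted p = 0.0203), although 1 library of each time overlapped. In the KO#2-labelled libraries it was 217, 133 and 210 CPM at 0 h and 297, 170 and 177 CPM at 24 h, with a log2 fold change of 0.20 (SE 0.36, edgeR adjusted p = 0.726). The KO#1 call was lost in 4 of the 6 fits that each left out 1 of its libraries, with adjusted p up to 0.0944.

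Of the mesenchymal structural genes, Fn1, which encodes the matrix protein fibronectin, had the largest change. In wt it was at 3699, 1870 and 3628 CPM at 0 h and at 202, 166 and 208 CPM at 24 h. In KO#1 it went from 2622, 1831 and 817 CPM to 128, 133 and 178 CPM, and in the KO#2-labelled libraries from 1623, 394 and 1791 CPM to 656, 196 and 124 CPM. The times were far apart in wt and KO#1 and overlapped in the KO#2-labelled libraries, where replicate 2 of 0 h was the low one and replicate 1 of 24 h the high one. Fn1 fell by 4.00 (SE 0.64) on the log2 scale in wt (edgeR adjusted p = 8.35e-05), by 3.59 (SE 0.63) in KO#1 (0.000328) and by 1.96 (SE 0.58) in the KO#2-labelled libraries (0.0191). Leaving out 1 library at a time kept the wt and KO#1 calls and lost that of the KO#2-labelled libraries in 4 of 6 fits. The response of the KO#2-labelled libraries was 2.03 (SE 0.81) above that of wt, which missed the threshold (edgeR adjusted p = 0.151) and passed it with no filter on low counts (0.00204). Without replicate 1 of 24 h of the KO#2-labelled libraries, the high one, this difference was 1.01 (adjusted p = 0.484).

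Cdh2, the cadherin often gained as Cdh1 is lost in EMT, was called in 1 line. In wt it was at 5.25, 2.94 and 4.09 CPM at 0 h and 9.97, 7.81 and 9.88 CPM at 24 h, with no overlap, and it rose by 1.22 (SE 0.39) on the log2 scale (edgeR adjusted p = 0.0143). Without replicate 2 of wt at 0 h, the lowest of its group, the value was 1.02 (adjusted p = 0.0681), and without scaling factors 0.62 (0.293). In KO#1 it was at 3.00, 1.67 and 1.23 CPM, then 1.76, 1.94 and 4.04 CPM, and in the KO#2-labelled libraries at 2.97, 2.83 and 5.13 CPM, then 6.27, 4.72 and 5.43 CPM. Neither change was called (log2 fold change 0.44, SE 0.41, edgeR adjusted p = 0.405, and 0.59, SE 0.37, 0.255), and neither response differed from that of wt in the test (adjusted p = 0.709 and 0.476).

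Vim, the intermediate filament vimentin, was called in no line. It lay between 135 and 234 CPM at 0 h and between 126 and 161 CPM at 24 h in wt, between 84.5 and 234 CPM and then 218 and 242 CPM in KO#1, and between 96.1 and 221 CPM and then 126 and 180 CPM in the KO#2-labelled libraries. The 0 h libraries of each line spread more widely than those of 24 h. Its log2 fold changes were -0.31 (SE 0.34) in wt, 0.40 (SE 0.34) in KO#1 and 0.06 (SE 0.34) in the KO#2-labelled libraries (edgeR adjusted p = 0.471, 0.362 and 0.924). With the fibroblast score in the model the wt value was 0.79 (adjusted p = 0.158). Without scaling factors, where the median of all genes was -0.58, it was called lower in wt (-0.91, edgeR adjusted p = 0.0444).

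None of the 5 EMT transcription factors rose from 0 h to 24 h in any line in this test, and 3 were called lower in wt, 2 in KO#1 and 2 in the KO#2-labelled libraries. Of all genes, 26%, 20.1% and 12.7% rose and 24.7%, 20.6% and 13.3% fell, and 5 genes are too few to set these counts apart from the shares. With the score in the model, described further on, Zeb2 in wt rose by 1.60 (edgeR adjusted p = 0.0400). Snai1 (Snail) was at 4.59, 1.47 and 5.17 CPM at 0 h and 0.997, 0.401 and 1.11 CPM at 24 h in wt. In KO#1 it went from 2.48, 2.51 and 1.63 CPM to 0.441, 0.920 and 1.24 CPM, and in the KO#2-labelled libraries from 1.95, 1.71 and 2.30 CPM to 0.732, 0.503 and 0.478 CPM. Every 24 h library lay below every 0 h library of its line. Snai1 fell by 2.08 (SE 0.50) on the log2 scale in wt (edgeR adjusted p = 0.00249) and by 1.79 (SE 0.49) in the KO#2-labelled libraries (0.0113), and its value of -1.30 (SE 0.51) in KO#1 was just outside the threshold (0.0501, and 0.0447 with DESeq2). The call of the KO#2-labelled libraries was lost without their replicate 3 of 24 h (-1.68, edgeR adjusted p = 0.0556).

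Snai2 (Slug), the other Snail family member, was near the limit of these libraries. Its counts at 24 h were 5, 1 and 6 in wt and 4, 2 and 3 in KO#1, where 3 counts mark the floor of detection, and 6 to 15 counts in the 0 h libraries of these lines. In CPM, wt went from 1.97, 1.38 and 0.834 to 0.293, 0.100 and 0.371, KO#1 from 1.56, 1.25 and 0.467 to 0.294, 0.204 and 0.187, and the KO#2-labelled libraries from 1.14, 0.630 and 2.30 to 1.52, 0.310 and 0.261. The times did not overlap in wt and KO#1 and did in the KO#2-labelled libraries, where replicate 1 of 24 h was high. Snai2 fell by 2.23 (SE 0.78) on the log2 scale in wt (edgeR adjusted p = 0.0237) and by 2.13 (SE 0.82) in KO#1 (0.0448), with -0.99 (SE 0.64) in the KO#2-labelled libraries (0.274). The call was lost in 4 of 6 fits without 1 library in wt and in 5 of 6 in KO#1, and without replicate 1 of 24 h the KO#2-labelled libraries gave -2.20 (adjusted p = 0.0231).

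Zeb1 and Zeb2 are the ZEB family repressors. Zeb1 in wt was at 17.4, 17.4 and 20.1 CPM at 0 h and 11.8, 12.6 and 11.7 CPM at 24 h, and in KO#1 at 24.5, 20.7 and 13.7 CPM, then 10.1, 11.9 and 10.7 CPM. It fell by 0.61 (SE 0.23) on the log2 scale in wt (edgeR adjusted p = 0.0334) and by 0.84 (SE 0.23) in KO#1 (0.00769), and the wt call was lost with no filter on low counts (adjusted p = 0.154) and in 4 of 6 fits without 1 library (up to 0.116). The KO#1 call was lost without replicate 1 of 0 h (-0.64, adjusted p = 0.0603) and with only the groups compared (-0.82, 0.0560). In the KO#2-labelled libraries it was at 27.7, 23.3 and 35.7 CPM, then 28.8, 24.2 and 26.2 CPM (log2 fold change -0.13, SE 0.22, edgeR adjusted p = 0.709). Zeb2 fell in the KO#2-labelled libraries, from 4.10, 5.40 and 7.39 CPM to 3.40, 1.51 and 1.82 CPM, by 1.33 (SE 0.42) on the log2 scale (edgeR adjusted p = 0.0261), a call that was lost in 3 of 6 fits without 1 library. It had log2 fold changes of 0.24 (SE 0.51) in wt and -1.23 (SE 0.53) in KO#1 (edgeR adjusted p = 0.722 and 0.0693), the latter 0.25 with the score in the model. Twist1, a basic helix-loop-helix factor, lay between 0.818 and 2.46 CPM in all 18 libraries and was called in no comparison.

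**Figure D2:**
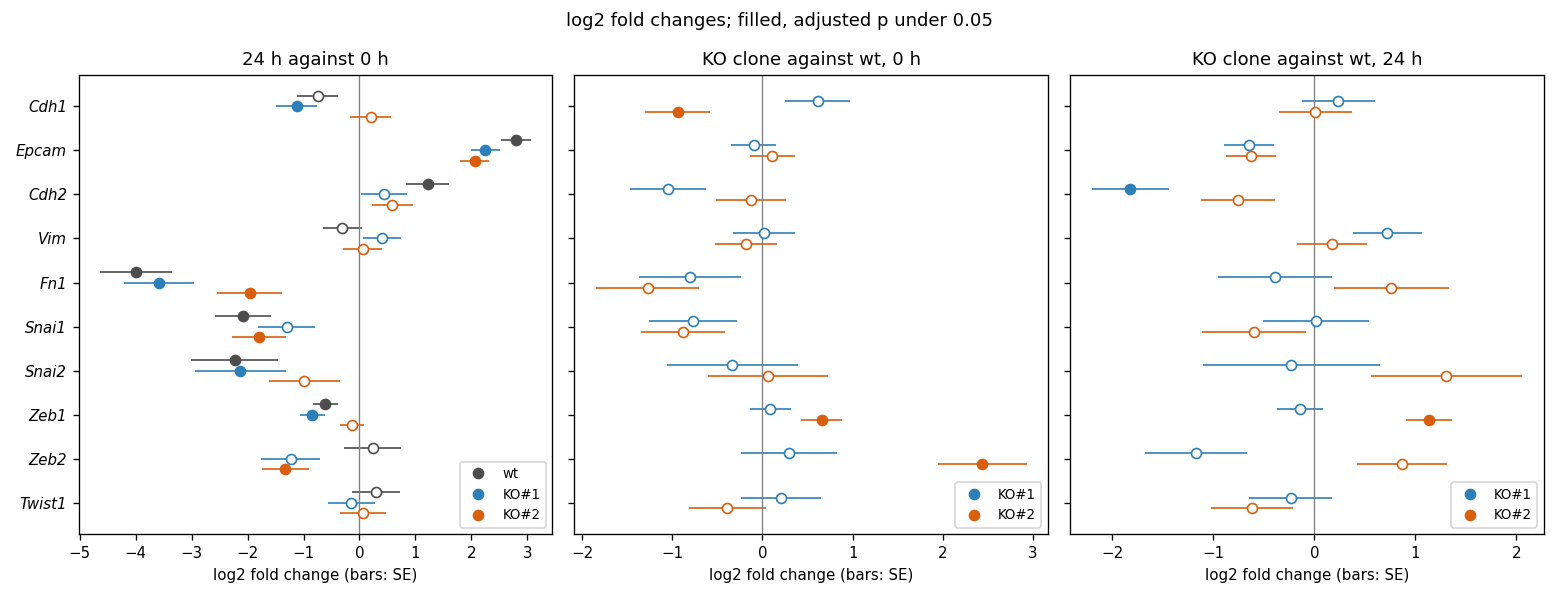
log2 fold changes of the 10 genes with SE from the edgeR fit over 18 libraries, for 24 h against 0 h in each line and for each KO line against wt at each time; filled points had an adjusted p under 0.05. Epcam lies to the right and Fn1 to the left of 0 in all 3 lines, and the filled points of the KO lines are Cdh1, Zeb1 and Zeb2 at 0 h and Cdh2 and Zeb1 at 24 h.

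The relation of the 10 genes to fibroblast RNA was measured within the groups, beside the change of the fibroblast genes themselves. From 0 h to 24 h, 6 of the 8 fibroblast genes fell in wt and in KO#1 and 3 in the KO#2-labelled libraries, while Dcn, which had 0 counts in all 3 wt libraries of 0 h, had 46 to 142 counts in wt at 24 h and rose in wt and KO#1. Within the 6 groups, a rise of 1 in the mean log2 CPM of the 8 genes went with a change of 1.17 (SE 0.27) in Snai2 on the log2 scale, 0.72 (SE 0.20) in Zeb2, 0.61 (SE 0.29) in Fn1 and 0.54 (SE 0.15) in Vim. None of the 10 slopes passed the test over all genes, where 0.012% of genes passed (edgeR adjusted p = 0.204 for Snai2, 0.358 for Zeb2, 0.604 for Fn1 and 0.382 for Vim; unadjusted p = 0.000433, 0.00177, 0.0497 and 0.00213). With the score in the model, the log2 fold change of Snai2 from 0 h to 24 h was -0.08 in wt and 0.42 in KO#1 (adjusted p = 0.948 and 0.790). The score itself did not overlap between the times in any line, with 2.72 to 4.08 and then 1.20 to 2.03 in wt. The model therefore separates score and time poorly. A call lost in it does not show what caused the change, which was not tested. Epcam, whose slope was -0.22 (SE 0.13), is no gene of the fibroblast list. In the same model the fall of Fn1 was not called in KO#1 (-2.15, adjusted p = 0.104) or the KO#2-labelled libraries (-1.04, 0.343), nor that of Zeb1 in wt (-0.23, 0.607) and KO#1 (-0.38, 0.494), nor that of Snai1 (-1.67, 0.107) and Zeb2 (-0.20, 0.831) in the KO#2-labelled libraries, nor that of Cdh1 in KO#1 (-0.72, 0.454). Calls that stayed were those of Epcam in wt (2.38, adjusted p = 0.000206), KO#1 (1.78, 0.00530) and the KO#2-labelled libraries (1.71, 0.00209), and in wt those of Fn1 (-2.91, 0.00811), Snai1 (-1.95, 0.0428) and Cdh2 (1.86). Vim in KO#1 (1.65, adjusted p = 0.0218) and Zeb2 in wt (1.60, 0.0400) were called higher at 24 h in that model and not in the one without the score.

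**Figure D3:**
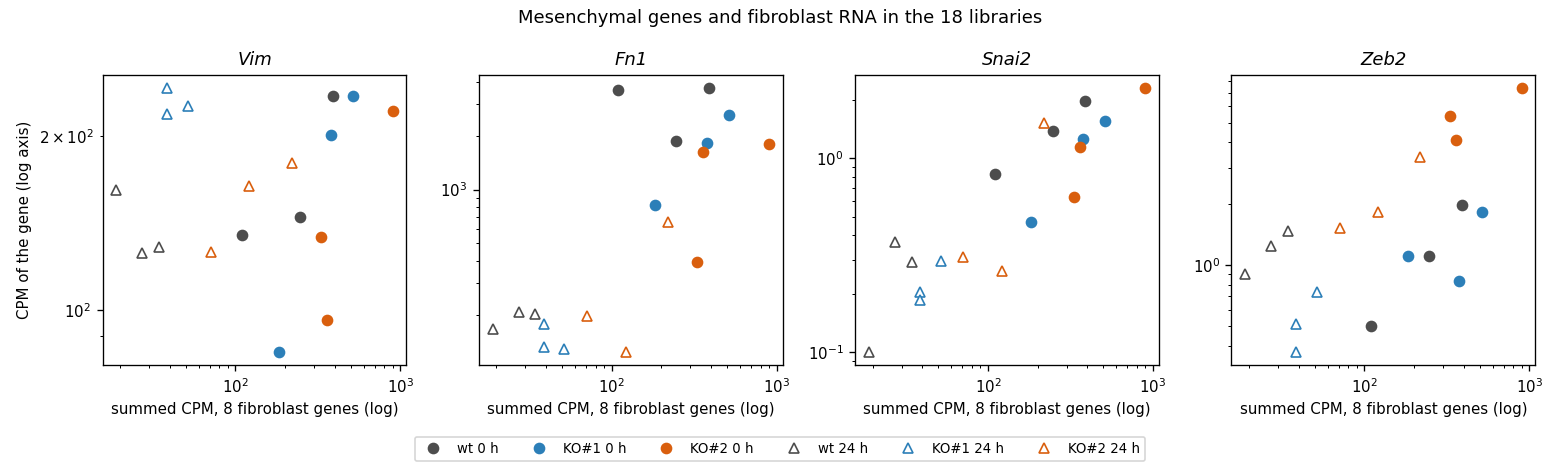
Level of Vim, Fn1, Snai2 and Zeb2 (CPM, vertical) against the summed CPM of 8 fibroblast genes (horizontal) in the 18 libraries, both axes logarithmic; circles are 0 h and triangles 24 h. Snai2 has the steepest slope of the 4 within the groups (1.17), and Vim in KO#1 at 24 h stands at 218 to 242 CPM with a fibroblast sum of only 38.7 to 51.8.

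The second question was whether the KO lines differed from wt in these genes. At 0 h, none of the 10 genes was called in KO#1 (edgeR), with 1 at an unadjusted p under 0.05 and 0 in each alternative run, while 6.67% of all genes were called, 3.99% higher and 2.68% lower. None of the 10 was without overlap between KO#1 and wt, against 20.5% of all genes. The one was Cdh2, at -1.04 (SE 0.42, edgeR adjusted p = 0.164). In the KO#2-labelled libraries, 3 of 10 were called, 2 higher and 1 lower, against 38.1% of all genes, 21.5% higher and 16.6% lower. Zeb2 was higher by 2.44 (SE 0.49) on the log2 scale (edgeR adjusted p = 0.00141), with 4.10 to 7.39 CPM in the KO#2-labelled libraries and 0.500 to 1.97 CPM in wt. Zeb1 was higher by 0.66 (SE 0.22, adjusted p = 0.0298), with 23.3 to 35.7 CPM against 17.4 to 20.1 CPM, and Cdh1 was lower by 0.94 (log2 fold change -0.94, SE 0.36, adjusted p = 0.0485), with 133 to 217 CPM against 282 to 409 CPM. None of the 3 overlapped wt, nor did Fn1, and 52.9% of all genes did not. The Zeb2 call held in each fit without 1 library, that of Zeb1 was lost in 4 of 6 (adjusted p up to 0.139) and that of Cdh1 in 5 of 6 (up to 0.166). Fibroblast genes were higher there too, 4 of 8 by the test, and with the fibroblast score in the model the Zeb2 difference was 1.22 (adjusted p = 0.0784), the Zeb1 difference 0.28 (0.531) and the Cdh1 difference -1.23 (0.0902). That model called 3 other genes, all lower than in wt: Vim (-1.14, adjusted p = 0.0398), Fn1 (-2.42, 0.0318) and Snai2 (-2.09, 0.0373). Without scaling factors, where the median of all genes was 0.54, the Cdh1 difference was -0.46 (adjusted p = 0.464).

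At 24 h, 1 of 10 was called in KO#1 and 1 in the KO#2-labelled libraries, where 9.86% (6.25% higher, 3.61% lower) and 37.3% (21.3% higher, 16% lower) of all genes were. In KO#1 it was Cdh2, lower by 1.82 on the log2 scale (log2 fold change -1.82, SE 0.38, edgeR adjusted p = 0.00426): the KO#1 libraries held 24, 19 and 65 counts and wt 170, 78 and 160. All 3 KO#1 libraries lay below all 3 of wt, and the call held in each fit without 1 library. In the KO#2-labelled libraries it was Zeb1, higher by 1.13 (SE 0.23, edgeR adjusted p = 0.000893), with 24.2 to 28.8 CPM against 11.7 to 12.6 CPM. Zeb1 therefore stood above wt at both times in these libraries, and this second call held in each fit without 1 library and without scaling factors, where it was 2.19 against a median of 1.24 for all genes. With the fibroblast score in the model it was 0.72 (adjusted p = 0.138), and 6 of the 8 fibroblast genes were higher in these libraries by the test.

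Some differences at 24 h that were not called had groups that did not overlap. Epcam was lower than every wt library in all 6 KO libraries, at log2 fold changes of -0.65 (SE 0.25, edgeR adjusted p = 0.114) in KO#1 and -0.63 (SE 0.25, 0.0519) in the KO#2-labelled libraries; both comparisons use the same wt libraries. DESeq2 called both, with adjusted p of 0.0497 and 0.0242, and without scaling factors the second was 0.39 with the opposite sign. Vim was above wt in all 3 KO#1 libraries (log2 fold change 0.72, SE 0.34, edgeR adjusted p = 0.223) and Zeb2 below it (-1.17, SE 0.51, 0.173). In the KO#2-labelled libraries, Cdh2 had a log2 fold change of -0.76 (SE 0.36, edgeR adjusted p = 0.109), Zeb2 of 0.87 (SE 0.45, 0.131, and -0.58 with the fibroblast score) and Twist1 of -0.62 (SE 0.41, 0.244). Without scaling factors these values were 0.27, 1.89 and 0.41, where the median of all genes was 1.24, and Zeb2 alone was called (edgeR adjusted p = 0.00229). Cdh2 was called with only the groups compared (-0.85, edgeR adjusted p = 0.0235). Over all genes, groups did not overlap in 29.1% for KO#1 and 52.1% for the KO#2-labelled libraries at 24 h, beside 4 and 5 of these 10.

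The third question was whether the response to induction itself differed between a KO line and wt. None of the 10 genes was called in either line in edgeR's test of that difference. At an unadjusted p under 0.05 there were 0 in KO#1 and 3 in the KO#2-labelled libraries, and over all genes 0.391% and 1.47% were called. The 3 were Fn1 (2.03), Zeb2 (-1.57, SE 0.66, edgeR adjusted p = 0.171) and Epcam (-0.74). DESeq2 called none in either line.

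The ratio of Cdh1 to Cdh2, each per kilobase, is the cadherin balance of a library and does not change with its scaling. It was 137 to 169 in wt at 0 h, 390 to 649 in KO#1 and 72.3 to 129 in the KO#2-labelled libraries. At 24 h it was 30.6 to 52.8 in wt, 160 to 178 in KO#1 and 57.5 to 83.6 in the KO#2-labelled libraries. At each time the KO#1 libraries lay above those of wt, without overlap, whereas the KO#2-labelled libraries lay below wt at 0 h and above it at 24 h. Cdh1 RNA outnumbered Cdh2 RNA per length by at least 30.6 times in every library. These ratios are given as levels, with no test.

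**Figure D4:**
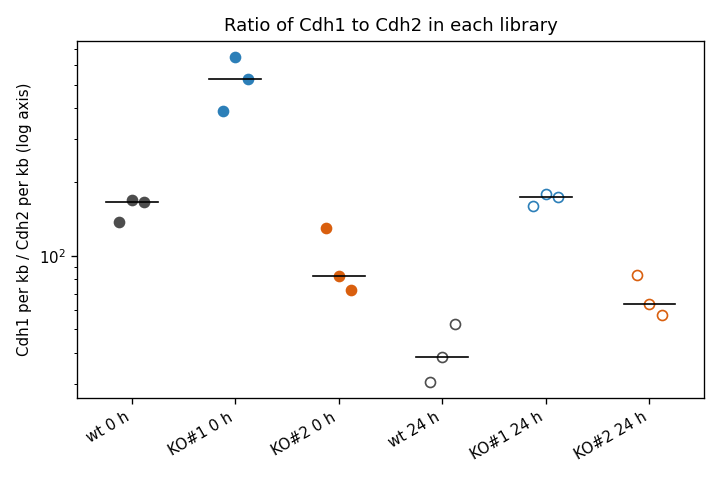
Ratio of Cdh1 to Cdh2, both in CPM per kilobase of exon, in each of the 18 libraries on a logarithmic axis; points are libraries, filled at 0 h and open at 24 h, and bars are medians of 3. The ratio was lower at 24 h than at 0 h in wt (30.6 to 52.8 against 137 to 169) and highest in KO#1 at 0 h (390 to 649).

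Across all 18 libraries, where time, line and scaling are shared by every point, Fn1 ran with Snai2 (Pearson r of log2 CPM 0.89) and Snai1 (0.87) and opposite to Epcam (-0.89). Zeb1 and Zeb2 ran together (0.75), and Cdh1 and Cdh2 hardly at all (-0.23). Among all genes above a mean log2 CPM of 2, those most like Snai2 were Col1a1 (0.97) and Col5a1 (0.95), both fibrillar collagens, and 2900026A02Rik (0.93). Those most like Vim were Ptrf (0.80), S100a4 (0.80) and Lmna (0.79), and those most like Epcam were Gja1, the gap junction protein connexin 43 by its common name, Car4 and Plk3, all at 0.98. Cdh1 was most like Vac14 (0.95), Edc4 and Fgfr1, Cdh2 most like Ccdc136 (0.92), Iffo2 and Plxnb1, and Fn1 most like Prrc2b, Sipa1l1 and Fbrsl1 (0.99, 0.99 and 0.98). Snai1 was most like Ogdhl (0.93), Pex26 and Src, Zeb1 most like Btbd7 (0.96), Klhl11 and Med13, Zeb2 most like Paxbp1 (0.89), D930016D06Rik and Usp45, and Twist1 most like Gpr89 (0.75), Slc30a6 and Tpd52l2.

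Other genes of the pathway were counted from lists beside the 10. Of 24 other epithelial genes (claudins, keratins, polarity genes and the factors that hold the epithelial state), 8 rose and 5 fell from 0 h to 24 h in wt, 13 rose and 2 fell in KO#1, and 7 rose and 3 fell in the KO#2-labelled libraries. Of all tested genes, 26% rose and 24.7% fell in wt, 20.1% and 20.6% in KO#1, and 12.7% and 13.3% in the KO#2-labelled libraries, so the counts of epithelial genes in wt lie near those shares. Their median log2 fold change was 0.54, 1.32 and 0.37. Esrp1, an epithelial splicing regulator, rose in all 3 lines, by 5.00 (SE 0.58), 4.43 (SE 0.55) and 3.31 (SE 0.48), from 0 to 14 counts in wt at 0 h to 268 to 649 at 24 h. The keratin gene Krt18 rose by 3.80 (SE 0.72) in wt and 3.38 (SE 0.68) in KO#1, and the claudin gene Cldn6 rose in all 3 lines, by 4.73 (SE 0.44) in KO#1, by 1.75 (SE 0.38) in the KO#2-labelled libraries and by a value between them in wt. Ovol1, a repressor of the mesenchymal state, had 0 counts in wt at 0 h and 2 to 10 at 24 h, too few for a fold, and St14, a membrane protease, fell by 2.23 in wt, 1.82 in KO#1 and 1.77 (SE 0.38) in the KO#2-labelled libraries. Of the 3 catenins, which tie cadherins to actin, Ctnnb1 (0.92, SE 0.25) and Ctnna1 (0.67, SE 0.22) rose and Ctnnd1 (-0.96, SE 0.28) fell in wt, Ctnna1 (0.79) rose and Ctnnd1 (-0.84) fell in KO#1, and none was called in the KO#2-labelled libraries.

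Of 20 other mesenchymal genes, none rose with time in any line, and 14 fell in wt, 13 in KO#1 and 6 in the KO#2-labelled libraries, where 24.7%, 20.6% and 13.3% of all genes fell. Fibroblast genes fell in the same comparisons, 6, 6 and 3 of 8, and their part in these counts was not tested. The slopes on the fibroblast score were 0.84 (SE 0.20) for Prrx1, 0.86 (SE 0.19) for Fbn1 and 0.92 (SE 0.22) for Cdh11, none of them called (edgeR adjusted p = 0.204, 0.170 and 0.216). The median log2 fold change of the 20 was -1.67, -1.75 and -0.89, or -1.58, -1.61 and -0.89 with genes at 3 counts or fewer set to their bound. The homeobox gene Prrx1 fell by 3.25 (SE 0.65) in wt, 3.19 in KO#1 and 1.88 (SE 0.48) in the KO#2-labelled libraries, and Klf8 by 2.63, 3.27 (SE 0.37) and 1.69. Twist2, Gsc and Foxc1 were called lower at very few counts: in wt, Twist2 had 3 to 5 counts at 0 h and 0 to 1 at 24 h, and Gsc 3 to 10 and 0 to 2, while in KO#1 Foxc1 had 7 to 9 and 0 to 3. Gsc was also called lower in KO#1 (-4.49), with 5 to 95 counts at 0 h and 0 to 5 at 24 h. In the KO#2-labelled libraries (-2.69) it had 7 to 25 and then 1 to 5. Of 12 genes of TGF-beta signalling, 3 rose and 8 fell in wt, 1 rose and 6 fell in KO#1, and 3 rose and 1 fell in the KO#2-labelled libraries, with medians of -1.22, -0.80 and -0.34. Of all genes, 26% rose and 24.7% fell in wt, 20.1% and 20.6% in KO#1, and 12.7% and 13.3% in the KO#2-labelled libraries. The 3 that rose in wt and the 1 that fell in the KO#2-labelled libraries lie near these shares, and the 1 that rose in KO#1 lies below its share. The inhibitory Smad7 fell in wt (-2.81, SE 0.48) and KO#1 (-1.53), the ligand gene Tgfb3 fell in wt (-3.25, SE 0.73), and Skil, a repressor of Smad signalling, rose by 2.32 (SE 0.24) in wt, 1.24 in KO#1 and 1.99 (SE 0.24) in the KO#2-labelled libraries. Tgfb2 fell in wt (-2.07), KO#1 (-3.60, SE 0.66) and the KO#2-labelled libraries (-2.03, SE 0.54), Tgfbr3 fell in wt (-1.77) and KO#1 (-2.84), Tgfb3 (-2.53) fell in KO#1, and Tgfb1 rose by 1.90 (SE 0.51) in the KO#2-labelled libraries.

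Between KO#1 and wt, 6.67% of all genes were called at 0 h and 9.86% at 24 h. At 0 h, the desmosome gene Dsp was higher than in wt by 2.30 (SE 0.51), Mmp2, a matrix metalloprotease, by 1.47 (SE 0.33), and Prss8 (-1.59) and Smad7 (-1.57) were lower, 4 calls in these lists. At 24 h, Dsp (2.63, SE 0.53), Krt19 (2.40, SE 0.73) and Ocln (1.41, SE 0.43), all epithelial, were higher and Skil lower (-0.84, SE 0.23), and none of the 20 other mesenchymal genes was called. In the KO#2-labelled libraries, 8 of 20 other mesenchymal genes were higher and 2 lower at 0 h, and 10 were higher and none lower at 24 h, with medians of 0.75 and 0.99 where those of all genes were 0.10 and 0.20 and where 21.5% and 21.3% of all genes were higher. Cdh11, the cadherin of mesenchymal cells, was higher by 2.76 (SE 0.58) at 0 h, Prrx1 by 2.50 (SE 0.52) at 0 h and 3.87 (SE 0.62) at 24 h, and the matrix gene Tnc by 2.39 (SE 0.39) and 3.42 (SE 0.41). Twist2 had 9 to 18 counts in the KO#2-labelled libraries and 0 to 1 in wt at 24 h. The fibroblast sum was higher in these libraries at 24 h and overlapped wt at 0 h, as given above, and its part in these differences was not tested.

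Of the 24 other epithelial genes, 6 were higher and 4 lower than in wt in the KO#2-labelled libraries at 0 h, and 3 higher and 4 lower at 24 h. Of all genes, 21.5% were higher and 16.6% lower at 0 h, and 21.3% and 16% at 24 h, so these counts are near or below the shares of all genes. Krt18 (4.31, SE 0.73), Krt8 (3.76, SE 0.79) and Krt19 (2.39, SE 0.79) were higher at 0 h, Dsp (3.26, SE 0.54) was higher at 24 h, and Rab25 (-2.28, SE 0.45) and Crb3 (-1.57, SE 0.43) were lower. Of the catenins, Ctnnb1 (0.77, SE 0.25) and Ctnna1 (0.62, SE 0.22) were higher at 0 h and Ctnnd1 (1.25, SE 0.28) at 24 h. Of the TGF-beta genes, 3 were higher and 2 lower at 0 h, with Skil (1.48), Tgfbr1 (1.38) and Smad7 (-1.41) the largest, and 5 were higher and none lower at 24 h, among them the receptor genes Tgfbr2 (2.16, SE 0.45) and Tgfbr3 (1.44, SE 0.50) and the signal carrier Smad3 (1.32, SE 0.35). The 6 primitive endoderm markers Gata6, Gata4, Sox17, Sox7, Pdgfra and Dab2 were all higher than in wt at 24 h, with a summed level of 14.2 to 28.2 CPM against 1.36 to 1.99 CPM. At 0 h, 3 of the 6 were higher than in wt in these libraries and 1 lower, with a sum of 8.63 to 11.3 CPM against 4.87 to 6.23 CPM. In KO#1, 1 was higher than in wt at 0 h and 2 at 24 h, where the sum was 2.99 to 7.79 CPM. The part of these genes in the Zeb1, Zeb2, Cdh1, Cdh2 and mesenchymal differences was not tested. Of the primitive streak genes, T and Mixl1 had 0 to 9 counts in every library and were not tested. Eomes, a T-box factor of the streak, was at 6.79 to 15.4 CPM in wt at 0 h and 1.67 to 1.88 CPM at 24 h, and it fell by 2.67 (SE 0.36) on the log2 scale (edgeR adjusted p = 1.95e-05). Eomes in KO#1 was at 6.52 to 6.89 CPM, then 5.22 to 11.7 CPM (log2 fold change 0.33, SE 0.33, adjusted p = 0.444), and in the KO#2-labelled libraries it rose from 2.49 to 4.06 CPM to 7.43 to 11.3 CPM (1.66, SE 0.33, 0.00148). At 24 h every library of both KO lines was above every wt library, by log2 fold changes of 2.26 (SE 0.36, edgeR adjusted p = 0.000362) in KO#1 and 2.45 (SE 0.35, 7.39e-05) in the KO#2-labelled libraries, and at 0 h the KO#2-labelled libraries were lower (-1.87, SE 0.34, 0.000709).

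**Figure D5:**
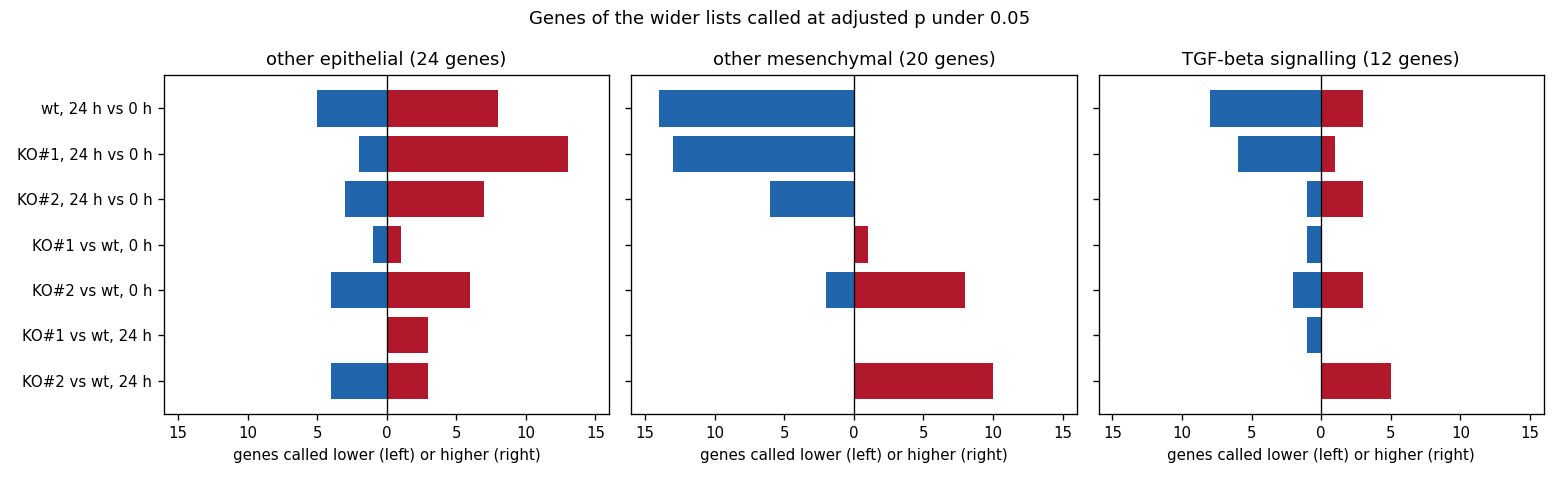
Number of genes of 3 wider lists called higher (right, red) or lower (left, blue) at an adjusted p under 0.05 in 7 comparisons, with the list size above each panel. In wt, 14 of 20 other mesenchymal genes were lower and none higher at 24 h, and in the KO#2-labelled libraries 10 were higher than in wt at 24 h.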

How the data were processed

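RNA-seq libraries were made from total RNA of 3 biological replicates per group. Per the study's methods and the labels, the authors ran the nf-core rnaseq pipeline (Trim Galore, removal of ribosomal reads, STAR alignment to Ensembl GRCm38) and deposited raw counts of reads per gene; the methods name a stranded library kit and Salmon and StringTie for quantification, while the annotation release, the strand setting and the tool that made this table of whole counts are not given in the sources used here. The deposited table also holds gene symbols.

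From those counts, genes were kept by filterByExpr with a minimum count of 10 (16619 of 45706), scaled by TMM and tested with edgeR 4.0.16 (R 4.3.3): 1 quasi-likelihood model of 6 groups over 18 libraries, 9 comparisons, Benjamini-Hochberg adjustment over all genes tested, called under 0.05. The SE is the log2 fold change over the root of F. CPM used TMM-scaled totals, and 3 counts (0.116 to 0.984 CPM by library) marked the floor. No 2 of the 153 library pairs were identical. Genes with few counts carry the most counting error, Snai1 and Snai2 at 24 h among them. The slope on the fibroblast score came from a model with group and score. Exon lengths and positions came from GENCODE M21 (45143 of 45706 gene identifiers matched). Figures used Python 3.11.15 and matplotlib 3.10.9.

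The named genes were the 10 members, the up to 3 called genes of largest change per wider list and comparison, and the 3 genes most like each member over 18 libraries. One item that this rule names is not reported here. Members and lists were chosen with earlier results of these data known. Alternatives were DESeq2 1.42.0, its size factors, no scaling, other filters and thresholds, fewer groups, a replicate block, the fibroblast score and leaving out each library. The fits were tested on simulated counts.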

Additional observations from a re-analysis of the deposited data

Results flagged for a closer look

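None of the 10 genes differed between lines in its response to induction, in edgeR's test after adjustment over all genes. Over all tested genes, 0.391% passed this test in KO#1 and 1.47% in the KO#2-labelled libraries. In the wider epithelial, catenin, mesenchymal and TGF-beta lists, of 24, 3, 20 and 12 genes, 2 passed (Krt18 and Loxl2). Both passed in the KO#2-labelled libraries, and 2 genes are too few to set apart from that share. Of the primitive streak markers, Eomes passed in both KO lines. These 3 were chosen after their values were seen. Krt18, the keratin of simple epithelia, had a response difference from wt of -5.09 on the log2 scale (SE 0.94, edgeR adjusted p = 0.0130). It went from 1.67 to 3.61 CPM at 0 h to 18.1 to 46.8 CPM at 24 h in wt, and from 7.10 to 79.2 CPM to 10.5 to 30.03 CPM in the KO#2-labelled libraries. Loxl2, a lysyl oxidase of the matrix, had a response difference of -2.39 (SE 0.53, edgeR adjusted p = 0.0305), with 5.90 to 12.3 CPM and then 10.8 to 18.4 CPM in wt, and 18.4 to 44.3 CPM and then 6.77 to 12.5 CPM in the KO#2-labelled libraries. Eomes, which fell in wt and rose in the KO#2-labelled libraries, had a response difference from wt of 3.00 (SE 0.49, edgeR adjusted p = 0.0139) in KO#1 and 4.33 (SE 0.49, 0.000437) in the KO#2-labelled libraries; both use the same wt libraries.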

How the results depend on the processing

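Low counts limit Snai1, Snai2, Zeb2 and Twist1 most, since 1 count is a large step there. The numbers of genes called among the 10 that moved by more than 1.5 times were as follows. For the KO#2-labelled libraries against wt at 24 h there were 2 with DESeq2's size factors, 5 without scaling factors, 2 with DESeq2, 3 with only the groups compared, 2 with the replicate block and 0 with the fibroblast score; for KO#1 against wt at 24 h, 2 with DESeq2, 0 with at least 10 counts in every library (a filter that keeps 9709 genes and 5 of the 10, and drops Cdh2), 2 with only the groups compared and 2 with the fibroblast score. From 0 h to 24 h there were 3 in wt at an adjusted p under 0.01; in KO#1, 3 with only the groups compared, 3 under 0.01 and 2 with the score; and in the KO#2-labelled libraries, 2 with the stricter filter, 1 under 0.01 and 1 with the score. For the KO#2-labelled libraries against wt at 0 h there was 1 with the stricter filter and 1 under 0.01, and for their response difference 1 with no filter on low counts. Within that limit, counts still differed, such as 7 in wt and 7 in KO#1 over time without scaling factors, and, for the KO#2-labelled libraries against wt at 0 h, 2 without scaling factors and 4 with DESeq2. Leaving out 1 library of the groups compared gave 4 to 6 in wt, 2 to 6 in KO#1 and 1 to 5 in the KO#2-labelled libraries over time, 0 in KO#1 and 1 to 3 in the KO#2-labelled libraries at 0 h, and 1 and 1 to 2 at 24 h. Snai2 changed sign with the score, to 0.42 over time in KO#1 and -2.09 for the KO#2-labelled libraries against wt at 0 h. Values called neither way that turned with it were Zeb2 (-0.58), Snai2 (-1.14), Vim (-0.93), Fn1 (-0.56) and Cdh1 (-0.34) for the KO#2-labelled libraries against wt at 24 h, Zeb2 (0.25) over time in KO#1, Snai2 (0.87) over time in the KO#2-labelled libraries and Vim (0.79) over time in wt, and 7 others. The cause of these changes was not tested. Of single values, slopes on the score included, 731 stayed called or not called over the settings that kept every library. With their sign kept, 28 gained a call and 29 lost one, and 2, the Snai2 values with the score, changed both sign and call. Among fits without 1 library, 798 stayed called or not called, 6 gained a call and 36 lost one. Of the 731, 37 changed sign, and of the 798, 47. Without scaling factors the median of all genes moved to 0.16 for KO#1 and 0.54 for the KO#2-labelled libraries at 0 h, and to -0.05 and 1.24 at 24 h; no called gene of the 10 changed sign, while values not called did, for the KO#2-labelled libraries at 24 h Epcam (0.39), Cdh2 (0.27), Snai1 (0.38) and Twist1 (0.41). Same-numbered libraries of different groups had a mean correlation of 0.0531 (-0.255 to 0.587) in their deviations, other pairs -0.0266. This mean cannot exclude a pairing by replicate between some groups, since single pairs reached 0.587. With the replicate block, 1 call was gained in each of 2 comparisons and none was lost: Snai1 over time in KO#1 (adjusted p = 0.0465), giving 6, and Epcam for the KO#2-labelled libraries against wt at 24 h (0.0274), giving 2.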
